A study of Bos taurus with 20 samples.

Results

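SOCS2 and CISH are feedback genes of growth hormone signalling, and their RNA was followed in the longissimus dorsi (LD) muscle of cattle together with that of GHR, the growth hormone receptor. The genes were taken by symbol from the platform's annotation, with 1 array row per gene. SOCS2, CISH and GHR each had 1 row, so 3 genes are described of 11329 with a row, and 3 rows of 21475. The symbols are those of bovine genes 338437 (SOCS2), 616753 (CISH) and 280805 (GHR). The growth factor IGF1 was also sought, but 0 rows carried its symbol, and it is not analysed here.

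Growth hormone binds GHR at the cell surface, which activates the kinase JAK2, and JAK2 activates the transcription factors STAT5A and STAT5B. The STAT5 proteins enter the nucleus and switch on their targets, among them SOCS2, CISH and, in liver and muscle, IGF1. The SOCS2 and CISH proteins then bind the activated receptor through their SH2 domains and recruit a ubiquitin ligase through their SOCS box, which limits the signal. Mice that lack Socs2 grow larger than their littermates, so the gene is known as a brake on body growth.

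The animals were Piedmontese by Hereford and Wagyu by Hereford crosses, sampled before birth at 60, 135, 195 and 280 days of gestation and after birth at 3, 7, 12, 20, 25 and 30 months. Total RNA of 72 animal samples was hybridised to 36 two-colour arrays, and each of the 20 deposited columns stands for 1 cross at 1 age, from 3 animals before birth and 4 after it. A cross and age thus has 1 column and no replicate, and the crosses serve as the 2 samples of an age. No treatment is named in the labels, and all the animals share Hereford parentage.

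The deposited values were read as log2 units from their range, with the log base unstated. On that reading a difference of 1 is a doubling. They ran from -0.64 to 21.75 over all rows. Column medians ran from 5.88, in the Piedmontese column of 280 days, to 7.36. Piedmontese and Wagyu samples of an age shared arrays in opposite dyes. The 2 columns of an age are therefore not independent. An effect of its arrays common to both columns would count as age, and the p-values for age leave it out of the spread. The 9 slides fell into 3 sets with no age in common (3 for gestation, 4 for 3 to 20 months, 2 for 25 and 30 months), so a change across birth, from 20 to 25 months or from 3 to 30 months cannot be told apart from a change of slides. A limma model of age and cross was fitted to all rows, and a difference counted as a change at an adjusted p (Benjamini-Hochberg over 21475 rows) under 0.05. Where counts at an unadjusted p are given, the share of all rows at that p was not computed. Errors after ± are the model's standard errors. The 5 measured markers of muscle fibres (ACTA1, CKM, TNNT3, MB and DES) averaged 14.49 to 20.31 in the 20 columns, so the labelled tissue carried its defining RNA throughout.

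All 3 genes changed with age. The F statistic over the 10 ages was 32.4 for GHR, 19.4 for SOCS2 and 6.2 for CISH, with adjusted limma p-values of 4.12e-08, 1.23e-06 and 0.00115. Most of the array did the same, since 87.4% of rows passed this test. The directions were unlike: GHR was highest at the oldest ages, SOCS2 was highest in mid gestation and lowest at the oldest ages, and CISH was lowest at 25 months. In whole muscle, fewer cells of a type and less RNA per cell cannot be told apart.

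**Figure D1:**
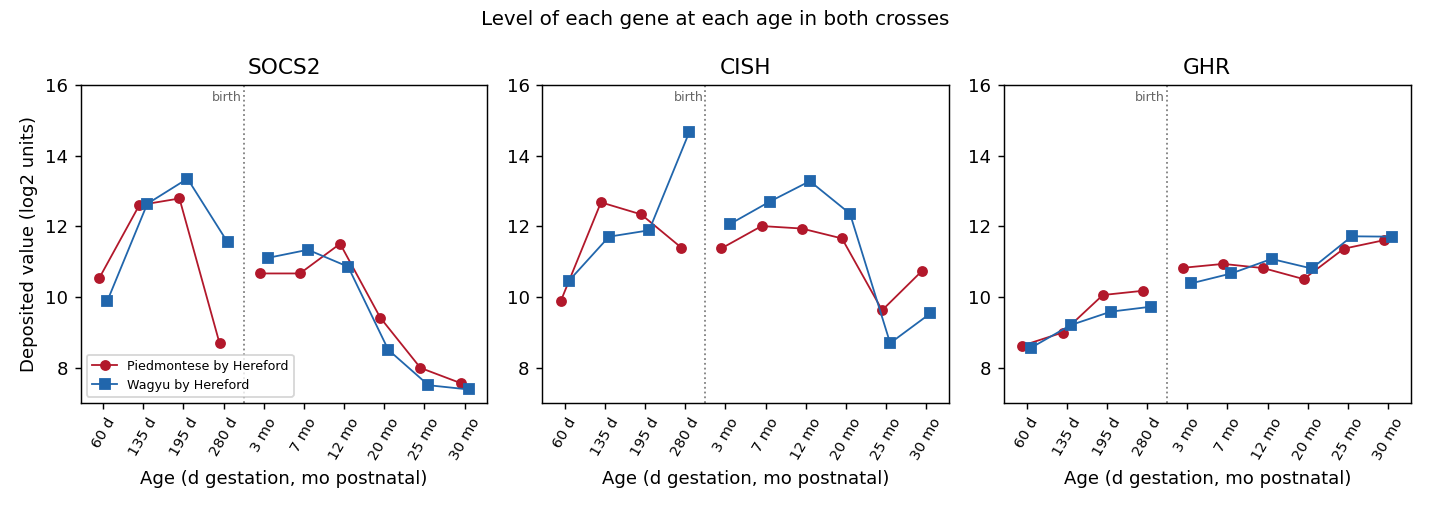
Deposited value (log2 units) of SOCS2, CISH and GHR at each age in the Piedmontese (red circles) and Wagyu (blue squares) crosses, 1 column per point, with birth as a dotted line. SOCS2 falls to between 7.39 and 8.0 at 25 and 30 months, CISH parts the crosses at 280 days, and GHR lies at 8.63 and 8.56 at 60 days and at 11.37 to 11.72 at 25 and 30 months.

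GHR, the receptor that starts the pathway, was lowest at the first fetal age. In the Piedmontese cross it read 8.63, 9.0, 10.06 and 10.18 at 60, 135, 195 and 280 days of gestation, and in the Wagyu cross 8.56, 9.21, 9.59 and 9.73. After birth it read 10.83, 10.94, 10.82, 10.51, 11.37 and 11.61 in the Piedmontese cross at 3, 7, 12, 20, 25 and 30 months, and 10.39, 10.67, 11.08, 10.81, 11.72 and 11.71 in the Wagyu cross. Every postnatal column lay above every prenatal one, with a lowest postnatal value of 10.39 and a highest prenatal value of 10.18. Here and below, the share of all rows whose columns likewise did not overlap was not computed. The mean of the postnatal ages exceeded that of the prenatal ages by 1.67 ± 0.11 (limma adjusted p = 3.93e-10), in a comparison where 73.5% of rows passed and 22.2% rose (36.8% and 54.5% with quantile normalised columns and with columns centred on their median).

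Inside gestation GHR was higher at 280 than at 60 days by 1.36 ± 0.25 (limma adjusted p = 0.000125), by 1.55 in the Piedmontese cross and 1.17 in the Wagyu cross, where 18.6% of rows rose. Inside postnatal life it was higher at 30 than at 3 months by 1.05 ± 0.25 (adjusted p = 0.00828), by 0.78 in the Piedmontese and 1.32 in the Wagyu cross, where 18.4% of rows rose. The 30-month samples lay on other slides than those of 3 months, which holds for every comparison of these ages. That call was lost without the Wagyu column of 3 months (0.83, adjusted p = 0.141) or of 30 months (0.97, adjusted p = 0.0991). The step from 20 to 25 months also passed, at 0.88 ± 0.25 (adjusted p = 0.0351), against 8.71% of rows that rose there. It did not pass with quantile normalised columns (0.72, adjusted p = 0.0957) or with columns centred on their median (0.65, adjusted p = 0.143). It was lost too in 6 of 20 fits that left out 1 column, those without a column of 20, 25 or 30 months of either cross, with values of 0.66 to 1.1 and adjusted p-values up to 0.365.

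SOCS2, the brake on growth hormone signalling, peaked in mid gestation. In the Piedmontese cross it read 10.53, 12.60, 12.79 and 8.69 at 60, 135, 195 and 280 days, and in the Wagyu cross 9.88, 12.64, 13.35 and 11.55. The 4 columns of 135 and 195 days, at 12.60 to 13.35, lay above all the rest. It rose by 2.42 ± 0.60 from 60 to 135 days (limma adjusted p = 0.00818), where 19.5% of rows passed in either direction and 7.56% rose. Without the Wagyu column of 60 days the rise was 1.96 (adjusted p = 0.0672), and with a trended and robust prior it kept its size at an adjusted p of 0.051.

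From 195 to 280 days SOCS2 fell by 2.95 ± 0.60 (limma adjusted p = 0.000508), while 33.6% of rows fell there and 47.8% passed in all. The fall was unequal, with a difference of -4.10 in the Piedmontese cross and -1.80 in the Wagyu cross. It passed without either column, at -1.45 without the Piedmontese column of 280 days and -4.45 without the Wagyu one. Between the first and last fetal ages the crosses moved in opposite directions, by -1.84 in the Piedmontese cross and 1.68 in the Wagyu cross, and the mean difference of -0.08 ± 0.60 did not pass (adjusted p = 0.917; 1.02 and 1.15 with quantile normalised and centred columns, neither passing). Its direction depended on which column of 280 days was kept. Without the Piedmontese one it was 1.41 (adjusted p = 0.0121), and without the Wagyu one -1.58 (adjusted p = 0.00554).

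Markers of several other cell types also fell from 195 to 280 days. All 5 fibroblast markers, 4 of 4 erythroid markers, 3 of 4 endothelial markers and 3 of 4 macrophage markers were lower at 280 days, and 3 of 5 fibre markers were higher. Of all rows 33.6% fell there. With quantile normalised columns 4, 3, 3 and 2 of these were lower and 2 fibre markers higher. With centred columns the counts were 3, 3, 3 and 2 lower and 3 higher. The mean level of the fibroblast markers was 11.83 and 13.02 in the Piedmontese and Wagyu columns of 280 days, against 15.20 and 15.80 at 195 days. That of the erythroid markers was 6.65 and 6.63, against 12.05 and 11.88. Their part in the fall of SOCS2 was not tested.

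After birth SOCS2 held a plateau and then declined. At 3, 7, 12, 20, 25 and 30 months it read 10.67, 10.67, 11.51, 9.42, 8.0 and 7.57 in the Piedmontese cross, and 11.11, 11.34, 10.86, 8.51, 7.51 and 7.39 in the Wagyu cross. The 6 columns of 3 to 12 months spanned 10.67 to 11.51 and overlapped one another. All 6 columns from 20 months on lay below them, and the 4 columns of 25 and 30 months, at 7.39 to 8.0, lay below every other column.

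The loss of SOCS2 at 30 against 3 months was -3.09 in the Piedmontese cross and -3.72 in the Wagyu cross (limma adjusted p = 0.00125), in a comparison where 21.9% of rows passed and 3.49% fell (12.4% and 7.21% with quantile normalised and centred columns). It passed in all 20 fits that left out 1 column, at -3.60 to -3.21. The steps that make it up were smaller. From 12 to 20 months, inside 1 set of slides, SOCS2 differed by -2.22 ± 0.60, by -2.09 in the Piedmontese and -2.35 in the Wagyu cross, and this missed the threshold (adjusted p = 0.0619; 2.29% of rows passed). From 3 to 20 months it differed by -1.92 ± 0.60 (adjusted p = 0.0751; 4.87% of rows passed), and from 20 to 25 months by -1.21 ± 0.60 (adjusted p = 0.224). All 3 passed once both columns of 280 days were left out, a choice made after seeing the data, with the same sizes, a smaller standard error of 0.35 and adjusted p-values of 0.0036, 0.00472 and 0.0381. The step from 12 to 20 months passed also without either column of 60 days (adjusted p = 0.0435).

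Adipocyte markers rose over the same months, as 4 of 5 were higher at 30 than at 3 months. Their mean level was 10.30 and 11.21 in the Piedmontese and Wagyu columns of 30 months, against 7.05 and 6.5 at 3 months. Of the 5 fibre markers 0 passed in limma, and 0 at an unadjusted p under 0.05, with a median difference of -0.32. Of the 4 erythroid markers 3 fell and AHSP rose (1.14 ± 0.28), 2 of 5 fibroblast markers fell (COL1A1 and COL3A1, -2.01 and -1.28), and of 4 endothelial markers TEK fell (-0.78) and VWF rose (0.83). The part of these cells in the decline of SOCS2 was not tested. Over the whole of postnatal against prenatal life SOCS2 was lower by a difference of -1.96 ± 0.27 (limma adjusted p = 4.29e-06). In that comparison 51.3% of rows fell, and the columns of SOCS2 overlapped, with 7.39 to 11.51 after birth and 8.69 to 13.35 before it.

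CISH, the first member of the SOCS family to be described, stayed within 1.90 units from 3 to 20 months and was lower at the 2 oldest ages. Before birth it read 9.89, 12.68, 12.34 and 11.40 in the Piedmontese cross and 10.46, 11.71, 11.89 and 14.67 in the Wagyu cross. After birth it read 11.38, 12.01, 11.94, 11.66, 9.63 and 10.75 in the Piedmontese cross at 3, 7, 12, 20, 25 and 30 months, and 12.06, 12.70, 13.28, 12.36, 8.70 and 9.54 in the Wagyu cross. The 8 columns of 3 to 20 months, at 11.38 to 13.28, all lay above the 4 of 25 and 30 months, at 8.70 to 10.75. Between 20 and 3 months CISH differed by 0.29 ± 0.72 (limma adjusted p = 0.886).

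CISH fell between 20 and 25 months, with a difference of -2.03 in the Piedmontese cross and -3.67 in the Wagyu cross (limma estimate -2.85 ± 0.72, adjusted p = 0.0218). At that step 0.261% of rows fell (3.95% and 1.22% with quantile normalised and centred columns) and 8.97% passed in all. Among the 3 genes 2 passed, CISH downward and GHR upward. The 25-month samples were on other slides than those of 20 months, so age and slides cannot be told apart there. The call was lost without the Piedmontese column of 20 months (-3.04, adjusted p = 0.118), the Wagyu column of 20 months (-2.66, adjusted p = 0.12) or the Wagyu column of 25 months (-2.12, adjusted p = 0.283), and with a trended and robust prior (adjusted p = 0.0983).

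From 25 to 30 months CISH differed by 0.98 ± 0.72 (limma adjusted p = 0.598; 2.81% of rows passed), and its difference of -1.57 ± 0.72 between 30 and 3 months did not pass (adjusted p = 0.124). Without the columns of 280 days that difference kept its size and passed (adjusted p = 0.0382). From 20 to 25 months 8.71% of all rows rose. The median difference of all rows was 0.27, and -0.02 and 0.04 with quantile normalised and centred columns. Marker counts at an unadjusted p are on the deposited scale, and the share of all rows at that p was not computed. Of the adipocyte markers 1 of 5 rose at this step, and all 5 had an unadjusted p under 0.05. Of the macrophage markers 1 of 4 rose (CD68, 1.25 ± 0.24), and all 4 had such a p. Their mean level was 9.02 and 8.87 in the Piedmontese and Wagyu columns of 25 months, against 8.05 and 8.02 at 20 months. Of the erythroid markers 3 of 4 rose, 1 with quantile normalised and 0 with centred columns. Of the T lymphocyte markers 0 of 6 passed in limma, and 1 at an unadjusted p under 0.05. Their part in the drop of CISH was not tested.

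In gestation CISH was higher at 280 than at 60 days by 2.86 ± 0.72 (limma adjusted p = 0.00231), in a comparison where 61% of rows passed and 18.6% rose. The difference was 1.51 in the Piedmontese cross and 4.21 in the Wagyu cross. Without the Wagyu column of 280 days it was 1.25 and did not pass (adjusted p = 0.113). From 60 to 135 days CISH differed by 2.02 ± 0.72 (adjusted p = 0.0599), and it was higher at 135 days in both crosses. That difference passed at 2.25 with quantile normalised columns (adjusted p = 0.0375). It passed also without either or both columns of 280 days (2.02, adjusted p = 0.0118), without either column of 30 months (2.02, adjusted p = 0.048) and without the Wagyu column of 135 days (2.76, adjusted p = 0.0432).

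From 195 to 280 days CISH differed by 0.92 ± 0.72 (limma adjusted p = 0.328), by -0.94 in the Piedmontese cross and 2.77 in the Wagyu cross, and without the Piedmontese column of 280 days by 2.53 (adjusted p = 0.00576). Postnatal minus prenatal it was -0.55 ± 0.33 (adjusted p = 0.145), and -0.95 (adjusted p = 0.00369) without that column. Across birth, from 280 days to 3 months, neither SOCS2 (0.76 ± 0.60, adjusted p = 0.35) nor CISH (-1.32 ± 0.72, adjusted p = 0.179) passed, and 28.6% of rows did. Each passed once 1 column of 280 days was left out, SOCS2 without the Wagyu one (2.26, adjusted p = 0.00164) and CISH without the Piedmontese one (-2.93, adjusted p = 0.00677).

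In the order of ages by mean level, few neighbours stood apart. SOCS2 ran downward through 195 days, 135 days, 12, 7 and 3 months, 60 and 280 days, and 20, 25 and 30 months. Its largest gap between neighbours, 1.44 from 135 days to 12 months, was 2.42 times the standard error of a difference. For CISH the 7 highest ages, of 280, 135 and 195 days and 3 to 20 months, were each within 0.42 of the next, and the only gap above 2 standard errors was the 1.54 from 3 months to 60 days. For GHR such gaps of over 2 standard errors set apart 25 months from 12 months, 3 months from 280 days, and 195, 135 and 60 days from one another.

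The study set a cross known for heavy muscling beside one known for fat in the muscle. Over all ages 0 of the 3 genes passed the limma test between the crosses. Piedmontese minus Wagyu was -0.17 ± 0.27 for SOCS2 (adjusted p = 0.964), -0.37 ± 0.32 for CISH (adjusted p = 0.877) and 0.05 ± 0.11 for GHR (adjusted p = 0.979), and 0.279% of rows passed. The same held without age as a block. SOCS2 was higher in the Piedmontese cross at 5 of 10 ages, CISH at 4 and GHR at 5. Whether the cross difference itself changed by stage was tested too, and 0 of the 3 passed (0.89 ± 0.50, 0.39 ± 0.65 and -0.25 ± 0.23, postnatal minus prenatal, adjusted p at least 0.977), where 0.0186% of rows passed. At an unadjusted p under 0.05, 0 of the 3 passed either of these tests.

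The exception was the last fetal age. At 280 days SOCS2 read 8.69 in the Piedmontese and 11.55 in the Wagyu cross, a difference of -2.86, and CISH 11.40 and 14.67, a difference of -3.26. At the other 9 ages the difference lay between -0.67 and 0.91 for SOCS2 and between -1.34 and 1.21 for CISH. Over all rows the difference at 280 days had a median of -0.31 and an SD of 0.54. Only 15 rows (0.0698%), SOCS2 included, differed by as much as SOCS2, and 6 (0.0279%) by as much as CISH. Piedmontese was lower in 11 of the 15.

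**Figure D2:**
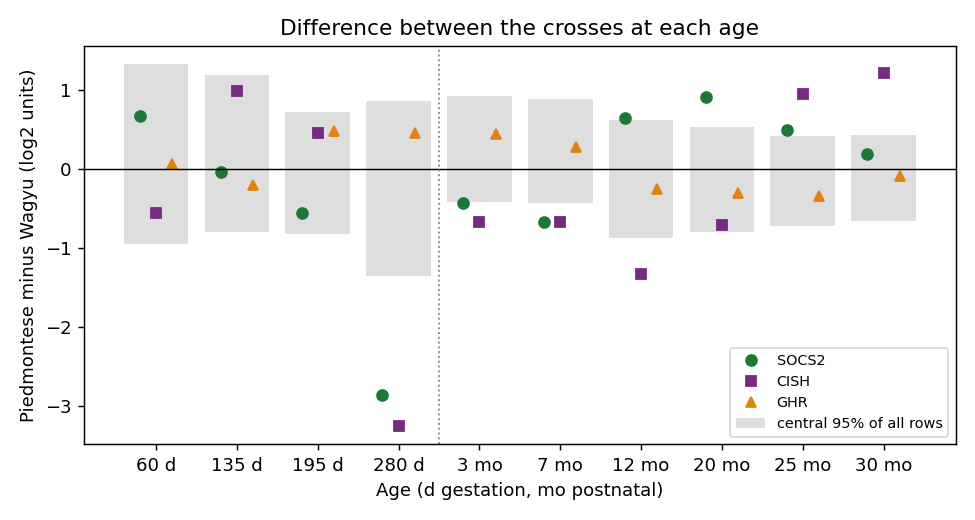
Piedmontese minus Wagyu (log2 units) at each age for SOCS2 (green circles), CISH (purple squares) and GHR (orange triangles), with the central 95% of all rows as grey bars and birth as a dotted line. SOCS2 and CISH at 280 days, at -2.86 and -3.26, lie far below the bar of that age, which spans -1.36 to 0.86.

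Among those 15 rows 12 carried a symbol. Lower in the Piedmontese cross were AKR1C4 (-3.63), BOLA-DQA2 (-3.51, an MHC class II chain), GATM (-3.35, the first enzyme of creatine synthesis), ANGPTL2 (-3.05), SPP1 (-3.00, the matrix protein osteopontin), TAGAP (-2.89) and SYT4 (-2.87). Higher were PTX3 (4.27, pentraxin 3, a protein of innate defence), S100A8 (3.06, a calcium-binding protein of neutrophils) and H1-2 (3.01, a linker histone). They were named after their values were seen.

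A test of this age against the other 9 was added after seeing the values, so its p-values describe a difference already noticed. The cross difference at 280 days minus that at the other ages was -2.99 ± 0.52 for SOCS2 and -3.22 ± 0.77 for CISH, with adjusted limma p-values of 0.0183 and 0.047, and 2.22% of rows passed, 1.97% downward. For GHR the same term was 0.45 ± 0.34 (adjusted p = 0.485). It did not pass with quantile normalised columns (-2.38 and -2.55, adjusted p = 0.0756 and 0.136) or with columns centred on their median (-2.54 and -2.77, adjusted p = 0.0733 and 0.112). On those scales the difference at 280 days itself was -2.26 and -2.44 for SOCS2 and -2.58 and -2.84 for CISH.

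Other measures of the 2 columns were as follows. The column medians of 280 days were 5.88 in the Piedmontese and 6.30 in the Wagyu cross. The mean level of the 5 fibroblast markers was 11.83 and 13.02, of the 5 adipocyte markers 4.69 and 6.01, of the 4 endothelial markers 10.00 and 10.61, of the 4 macrophage markers 6.79 and 7.33, of the 6 T lymphocyte markers 4.20 and 4.41, of the 4 erythroid markers 6.65 and 6.63, and of the 5 fibre markers 19.50 and 19.99. In the test of 280 days against the other ages LUM, a fibroblast marker, was the only one of these markers that passed. At 280 days 2 of the 3 Piedmontese samples were in Cy3 and 1 in Cy5, with the Wagyu samples the other way round. The dyes lay the same way at 60 days, where the differences were 0.66 for SOCS2 and -0.56 for CISH. The part of the markers or of the dyes in the difference was not tested.

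After birth the sign of the cross difference of CISH went with age and with the set of slides, which cannot be told apart. CISH was lower in the Piedmontese cross at 3, 7, 12 and 20 months, by differences of -0.68, -0.68, -1.34 and -0.71, and higher at 25 and 30 months, by 0.94 and 1.21. Of all rows 7.88%, 7.51%, 0.615% and 4.96% differed as much at 3, 7, 12 and 20 months, and 1.2% and 0.414% at 25 and 30 months. Set against each other after their values were seen, the 2 older and the 4 younger ages differed by 1.93 ± 0.76, with an unadjusted p of 0.0228 and an adjusted limma p of 0.999, and 0% of rows passed. SOCS2 gave 0.23 ± 0.69 and GHR -0.26 ± 0.31 in the same term.

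SOCS2 and CISH had their highest correlation over the postnatal columns. Over the 12 postnatal columns Pearson's r was 0.79 (Spearman 0.76), over the 8 prenatal columns 0.42 and over all 20 columns 0.64. Columns share arrays, slides and column level, so these are descriptions. Over the postnatal columns 114 of 10847 genes correlated more highly with SOCS2 than CISH did, and over all 20 columns 463. GHR ran the other way after birth, with r = -0.79 to SOCS2 and -0.76 to CISH, and had r = 0.07 and 0.52 over the prenatal columns. In all 3 genes the postnatal columns of 25 and 30 months, on other slides, lay apart from those of 3 to 20 months. SOCS2 spanned 7.39 to 8.0 against 8.51 to 11.51, CISH 8.70 to 10.75 against 11.38 to 13.28, and GHR 11.37 to 11.72 against 10.39 to 11.08. The postnatal correlations span that step, and none was computed inside 3 to 20 months. The cross differences of SOCS2 and CISH correlated at 0.60 over the 10 ages and at -0.15 without 280 days, so that relation rests on 1 age.

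**Figure D3:**
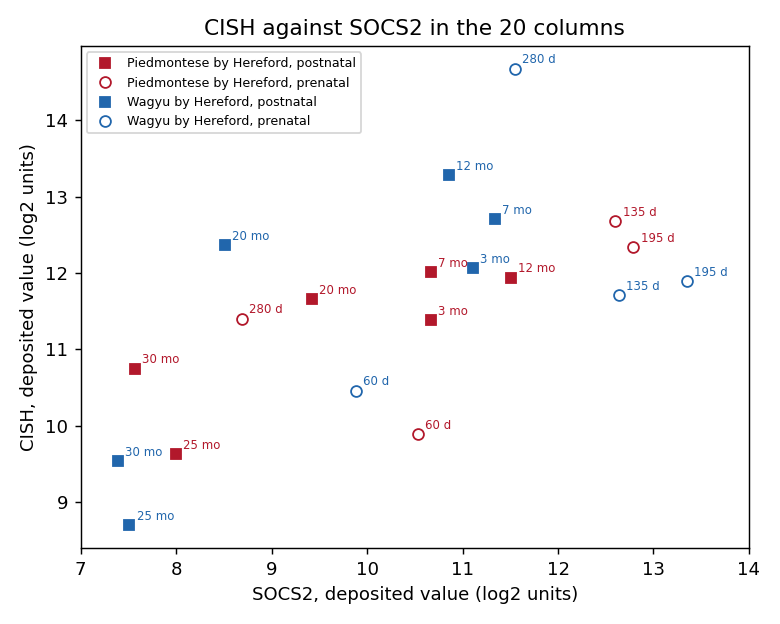
CISH against SOCS2 (deposited log2 units) in the 20 columns, Piedmontese in red and Wagyu in blue, postnatal columns filled and prenatal ones open, each marked with its age. The 4 columns of 25 and 30 months lie at the lower left, and the Wagyu column of 280 days at the top, at 11.55 for SOCS2 and 14.67 for CISH.

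The genes whose values ran most like SOCS2 over the 20 columns, among 10847 genes with a range of at least 1, were LMNB2 (lamin B2 of the nuclear envelope, r = 0.893), CBLN4 (0.884), FGD5 (0.867), PACS2 (0.859) and PEX11A (0.834). Over the 12 postnatal columns they were MGC157368 (0.951), FRY (0.933) and C29H11orf75 (0.932). For CISH they were LSG1 (a GTPase of ribosome assembly, 0.757), FCGRT (the neonatal Fc receptor, 0.721), LOC509761 (0.707), SNX1 (0.687) and RFTN1 (0.664), and after birth SOS2 (0.87), LRRCC1 (0.843) and CRY1 (a repressor of the circadian clock, 0.831). For GHR they were CYB5R1 (0.970), TOM1 (0.962), DCAF8 (0.962), PDK2 (a kinase that restrains pyruvate oxidation, 0.957) and HSPB6 (a small heat shock protein of muscle, 0.953). After birth they were ASPHD1 (0.983), SLC10A1 (0.973) and LOC524236 (0.973). Over the 20 columns 0 genes reached the likeness to CISH that the first 5 had to SOCS2 or GHR. LOC524236 had r = -0.154 to GHR with quantile normalised columns, and PEX11A had 0.570 to SOCS2.

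The rest of the pathway is described by counts from gene lists, to be read against the share of all rows called. A rise or fall after birth here means the mean of the postnatal ages against that of the prenatal ages. It does not mean a step across birth. After birth 22.2% of all rows rose and 51.3% fell, with quantile normalised columns 36.8% and 36.9%, and with centred columns 54.5% and 27.9%. From 60 to 280 days 18.6% rose and 42.4% fell, with quantile normalised columns 37% and 30.6%, and with centred columns 59.8% and 22.3%. At 30 against 3 months 18.4% rose and 3.49% fell, with quantile normalised columns 11.7% and 12.4%, and with centred columns 16.9% and 7.21%. The median of all rows itself shifted on the deposited scale, by -0.30 for postnatal minus prenatal, -0.34 for 280 minus 60 days and 0.31 for 30 minus 3 months, and with quantile normalised columns by 0, 0.15 and 0.

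Upstream, of 14 measured genes of the receptor and its kinases (18 listed), 5 rose and 5 fell after birth, against 22.2% and 51.3% of all rows, and the list's median difference was 0.09. With quantile normalised columns 7 rose and 4 fell, and with centred columns 9 and 2. The share of the list that passed in either direction, 10 of 14, was close to the 73.5% of all rows. STAT5B, the STAT5 form that carries most of the response to growth hormone, rose by 1.78 ± 0.10 and STAT3 by 0.86 ± 0.16. The adapter SHC1 and the kinase TYK2 were lower, with differences of -1.62 ± 0.13 and -1.61 ± 0.13. JAK2 was higher after birth by 0.62 ± 0.12, and STAT5A differed by 0.24 ± 0.11 and did not pass (adjusted p = 0.0608), but it did with quantile normalised (0.70) and centred columns (0.87). Already inside gestation STAT5B was higher at 280 than at 60 days, by 3.49 ± 0.23, with 12.07 and 11.53 in the Piedmontese and Wagyu columns of 280 days against 8.19 and 8.43 at 60 days. STAT5A rose there by 1.11 ± 0.25. JAK2 differed by -0.93 ± 0.26 on the deposited scale, but by 0.27 and 0.30 with quantile normalised and centred columns, where it did not pass.

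From 3 to 30 months 4 of the 14 upstream genes rose and 0 fell on the deposited scale, against 18.4% and 3.49% of all rows. With quantile normalised columns 3 rose and the kinase SRC fell (-0.82). The 4 were GHR, TYK2 (1.0 ± 0.29), JAK2 (0.82 ± 0.26) and STAT5A (0.75 ± 0.25), with adjusted limma p-values of 0.00828 to 0.0411, and TYK2 did not pass with quantile normalised columns (0.78, adjusted p = 0.0773). JAK2 read 7.28 and 7.68 in the Piedmontese and Wagyu columns of 30 months, against 6.61 and 6.72 at 3 months. STAT5A read 6.53 and 6.57, against 5.84 and 5.76. STAT5B differed by 0.64 ± 0.23 and did not pass (adjusted p = 0.0547).

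**Figure D4:**
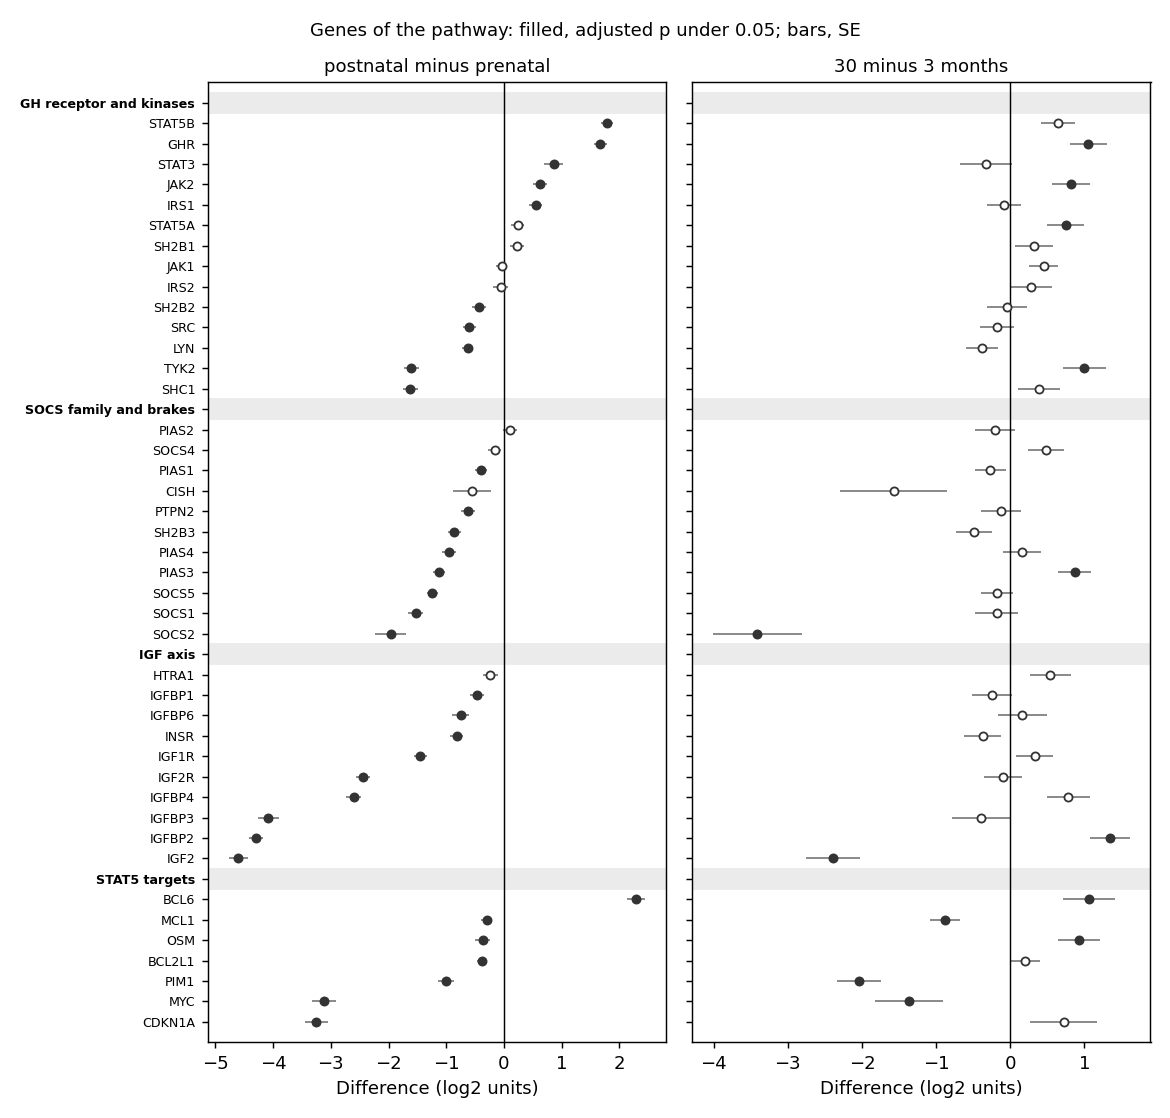
Difference (log2 units) of each measured pathway gene for postnatal minus prenatal ages (left) and 30 minus 3 months (right), with standard errors as bars and genes that passed the limma test at an adjusted p under 0.05 as filled circles. SOCS2 lies lowest of the brakes on both sides, at -1.96 and -3.41, and at 30 against 3 months only PIAS3 of the other brakes passed, upward.

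Among the brakes on JAK and STAT, 11 of 18 listed symbols were measured, SOCS2 and CISH among them. The list held SH2B3 also under its older name LNK. After birth 8 of the 11 were lower and 0 higher, against 51.3% and 22.2% of all rows and 73.5% that passed in all, with a median difference of -0.86. With quantile normalised columns 7 were lower and 2 higher, and with centred columns 6 and 3. The largest after SOCS2 were SOCS1 (-1.53 ± 0.13), which inhibits JAK kinases directly, and SOCS5 (-1.24 ± 0.10). Both fell over gestation, by 3.16 ± 0.29 for SOCS1 and 2.92 ± 0.22 for SOCS5 between 280 and 60 days. SOCS1 read 7.45 and 8.34 in the Piedmontese and Wagyu columns of 280 days against 11 and 11.12 at 60 days, and SOCS5 7.97 and 8.40 against 11.16 and 11.05. At 3 months SOCS1 read 8.45 and 8.49, and SOCS5 8.53 and 8.72. CISH was the only brake that rose from 60 to 280 days on the deposited scale, where 8 of the 11 and 42.4% of all rows fell. With quantile normalised columns PIAS2 (1.46) rose as well, and with centred columns PIAS2 (1.41), SOCS4 (0.67) and PIAS1 (0.61). At 30 against 3 months PIAS3 rose by 0.87 ± 0.22 and SOCS2 was the only one that fell, joined by SH2B3 with quantile normalised (-0.89) and centred columns (-0.62). SOCS3 is not analysed here.

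The SOCS box works with a ubiquitin ligase, and of 11 symbols listed for its parts 4 were measured (CUL2, RBX1, ELOC and NEDD8). The list held ELOC and ELOB also under older names. The cullin CUL5, RNF7 and ELOB were among those without a row. After birth ELOC (elongin C, which binds the SOCS box) rose by 1.34 ± 0.10, the cullin CUL2 by 1.05 ± 0.11 and the ubiquitin-like NEDD8 by 0.56 ± 0.11, and 0 fell, where 22.2% of all rows rose. At 30 against 3 months ELOC was the only one that passed, at 0.63 ± 0.21 (limma adjusted p = 0.0398).

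Of the other known targets of STAT5, 7 of 13 listed were measured. From 60 to 280 days 6 of the 7 rose and 0 fell, against 18.6% and 42.4% of all rows, led by BCL6 (a transcriptional repressor, 3.42 ± 0.35), MYC (2.24 ± 0.46) and CDKN1A (the cell cycle inhibitor p21, 1.56 ± 0.45). CDKN1A did not pass there with quantile normalised columns (1.1, adjusted p = 0.0985). After birth 1 of the 7 was higher and 6 were lower (51.3% of all rows were lower), but 1 and 4 with quantile normalised columns and 3 and 3 with centred ones. BCL6 was higher by 2.29 ± 0.16, and CDKN1A, MYC and the kinase PIM1 were lower, with differences of -3.25 ± 0.20, -3.12 ± 0.21 and -1.01 ± 0.14. At 30 against 3 months PIM1 fell with SOCS2, at 8.5 and 8.34 in the Piedmontese and Wagyu columns against 10.67 and 10.26 (difference -2.04 ± 0.30, limma adjusted p = 0.000351). MYC (-1.37 ± 0.46) and MCL1 (-0.88 ± 0.20) fell too, while BCL6 (1.06 ± 0.35) and OSM (0.93 ± 0.28) rose. Those 2 rises did not pass with quantile normalised columns (adjusted p = 0.0971 and 0.115). OSM lay at 3.33 to 4.63 in the 20 columns, below every column median.

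In the insulin-like growth factor axis 10 of 18 listed genes were measured, and after birth 9 were lower and 0 higher, against 51.3% and 22.2% of all rows. IGF2, the fetal growth factor of the family, was lower by a difference of -4.60 ± 0.17, the binding protein IGFBP2 by -4.29 ± 0.12 and IGFBP3, the main carrier in blood, by -4.08 ± 0.18. With centred columns 6 were lower and 1 higher. IGF2 went on falling, with 13.51 and 13.54 in the Piedmontese and Wagyu columns of 30 months against 15.98 and 15.85 at 3 months (-2.39 ± 0.37, limma adjusted p = 0.000558), and IGFBP2 rose there by 1.34 ± 0.27. Between 280 and 60 days 6 of the 10 fell and 2 rose, against 42.4% and 18.6% of all rows, and with centred columns 3 and 3. The binding proteins IGFBP2 (-7.47 ± 0.27) and IGFBP4 (-5.54 ± 0.29) and the protease HTRA1 (-2.72 ± 0.28) fell most, and IGFBP1, a liver and stress-linked binding protein, rose by 2.41 ± 0.27 and INSR, the insulin receptor, by 1.1 ± 0.25.

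Of 20 measured receptors and ligands of other JAK and STAT cytokines (25 listed), 7 rose and 4 fell after birth, against 22.2% and 51.3% of all rows. With quantile normalised columns 11 rose and 3 fell, and with centred columns 16 and 1. IL15, a cytokine made by muscle, rose by 2.45 ± 0.11, IL4R by 1.06 ± 0.11 and EPO by 0.95 ± 0.09, and CNTFR (-1.46 ± 0.11), IL13RA1 (-0.78 ± 0.10) and PRLR (-0.53 ± 0.16), the prolactin receptor, were lower, IL13RA1 and PRLR not so with centred columns (-0.15 and 0.09). At 30 against 3 months 2 rose and 0 fell, IL6R by 2.82 ± 0.38 and LIF by 0.77 ± 0.27. LIF did not pass with quantile normalised (0.17, adjusted p = 0.657) or centred columns (0.65, adjusted p = 0.0695). With quantile normalised columns EPO (-0.92), IL15 (-0.84) and IL2RG (-0.62) fell, and with centred columns IL2RG (-0.60). IL15 (1.05 to 5.35 in the 20 columns), EPO (2.76 to 4.64), PRLR (2.75 to 5.1) and LIF (2.68 to 4.4) lay below the lowest column median of 5.88. Whether these rows were near background could not be told. Downstream of insulin and IGF, 7 of 12 measured genes (23 listed) rose and 2 fell after birth, against 22.2% and 51.3% of all rows, and 10 rose with quantile normalised and with centred columns (2 and 1 fell). The largest differences upward were those of TRIM63 (the muscle ubiquitin ligase MuRF1, 4.58 ± 0.23), SLC2A4 (the glucose transporter GLUT4, 3.49 ± 0.13) and PDPK1 (1.29 ± 0.13). TRIM63 rose inside gestation, from 9.05 and 9.4 in the Piedmontese and Wagyu columns of 60 days to 19.47 and 18.43 at 280 days. At 3 months it read 18.81 and 17.79. The regulatory subunits PIK3R2 (-2.50 ± 0.09) and PIK3R3 (-0.73 ± 0.16) of the PI3 kinase were lower, PIK3R3 not with centred columns (-0.10). PIK3R2 read 14.03 in both columns of 60 days and 8.74 and 9.12 in the Piedmontese and Wagyu columns of 280 days. At 3 months it read 9.67 and 9.65. PIK3R3 lay at 2.5 to 5.19 in the 20 columns, below every column median. At 30 against 3 months 0 of the 12 passed in limma (1 higher and 1 lower with quantile normalised and with centred columns), and 4 had an unadjusted p under 0.05, 3 higher and 1 lower. Between the crosses 0 of the 78 genes measured in these 7 lists passed in limma, where 0.279% of all rows did, and 10 had an unadjusted p under 0.05. The share of all rows at that unadjusted p was not computed, so the 10 cannot be read against it.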

How the data were processed

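The authors' deposited table holds 1 value per array row and column, read here as log2 units. Its log base, its normalisation and the way 3 or 4 animals became 1 column were not given in the sources used here. Agilent Feature Extraction 8.5.1.1 is named in the submitters' processing notes. The submitters' list of dyes and scans gave the 36 arrays on 9 slides. The number of arrays limits the precision. Gene names come from the platform's annotation: 12276 rows had 1 symbol, 0 several and 9199 none, and a current bovine gene table held the symbols of 12153 rows.

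In R 4.3.3, limma 3.58.1 (lmFit and eBayes) fitted every row with 10 ages and the cross, with 9 residual degrees of freedom. The cross difference by stage was fitted on the 10 differences between the crosses (8 degrees of freedom). The Benjamini-Hochberg adjustment ran over 21475 rows, with a threshold of 0.05. Repeat sampling of an animal is neither stated nor denied, so p-values measure only the spread between these columns. The models were tested on simulated data. Other tables and the figures came from matplotlib 3.10.9, numpy 2.4.6 and pandas 2.3.3 under Python 3.11.15.

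The genes, the lists, the rules and the markers were chosen with earlier results of these data known. From each list up to 3 called genes per direction were named, with JAK2, STAT5A and STAT5B in any case, and for each gene the 5 most alike over 20 columns and the 3 over 12. Where a gene had several rows, that with the highest mean was used. Alternatives were quantile normalisation, centring, the lowest 25% of rows left out, a trended and robust prior, averaged rows, each column left out, stage for age, a line over the rank of postnatal ages, and no block of age. Leaving out both columns of 280 days was added later.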

Additional observations from a re-analysis of the deposited data

Results flagged for a closer look

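Among the 10 cross differences of SOCS2, that of 280 days (Piedmontese minus Wagyu, -2.86) stood apart from the others: its gap to the nearest age took 0.581 of the whole range, above Dixon's 95% critical value for 10 values. Among the 4 prenatal ages alone the same gap took 0.655 of the range and did not pass. Chance alone takes about 1 in 20 sets of values past such a critical value. The gap was examined at both ends for SOCS2, CISH and GHR, over the prenatal, the postnatal and all 10 ages, and no other gap passed. The chance that some set passes is thus higher than 1 in 20. Over all rows the SD of the cross difference was 0.4 to 0.62 before birth and 0.28 to 0.37 after it, so the 10 values do not share a common spread. CISH, with -3.26 at 280 days, had a gap of 0.431 over the 10 ages and did not pass.

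The cross difference at 280 days also differed from that at the other 9 ages in a limma test of the difference itself, by -2.99 for SOCS2 and -3.22 for CISH. This test was added after the values were seen, and both adjusted p-values rose above 0.05 with quantile normalised or centred columns.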

How the results depend on the processing

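Of 279 comparisons of a result with an alternative that kept all columns or left out both of 280 days, 250 kept their side of the threshold, 19 passed newly and 10 no longer passed. A change of direction where neither fit passed was counted among the 250. SOCS2 at 280 minus 60 days with quantile normalised or centred columns was such a case. With both columns of 280 days left out, the differences that newly passed were SOCS2 at 20 minus 3 months (-1.92), 20 minus 12 months (-2.22) and 25 minus 20 months (-1.21), and CISH at 30 minus 3 months (-1.57) and 135 minus 60 days (2.02). With quantile normalised or centred columns CISH at 135 minus 60 days passed (2.25 and 2.26), while GHR at 25 minus 20 months (0.72 and 0.65) and the added cross difference at 280 days against the other ages did not, for SOCS2 (-2.38 and -2.54) and CISH (-2.55 and -2.77). Without the lowest 25% of rows SOCS2 at 20 minus 12 months passed (-2.22), and CISH (-2.85) and GHR (0.88) at 25 minus 20 months did not. With a trended and robust prior SOCS2 at 135 minus 60 days (2.42) and CISH at 25 minus 20 months (-2.85) did not pass. GHR also passed at 3 months minus 280 days (0.66) under these last 2 alternatives, at 135 minus 60 days with quantile normalised or centred columns (0.73 and 0.75) and at 280 minus 195 days with the same (0.95 and 0.87). It passed at 195 minus 135 days with those columns (0.95 and 0.96), without the lowest 25% of rows and without the columns of 280 days (both 0.72). As a line over the rank of postnatal ages CISH passed at -2.57 between 30 and 3 months. The cause of these shifts was not tested.

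With 1 column left out at a time, 280 minus 60 days ran from -1.58 to 1.41 for SOCS2, reversing without the Piedmontese column of 280 days, and from 1.25 to 4.47 for CISH. From 280 days to 3 months SOCS2 ran from -0.73 to 2.26 and CISH from -2.93 to 0.29, and from 195 to 280 days CISH from -0.69 to 2.53. The range was -2.52 to -1.32 for SOCS2 at 20 minus 3 months, -2.82 to -1.62 at 20 minus 12 months, -1.81 to -0.61 at 25 minus 20 months and 1.96 to 2.88 at 135 minus 60 days. It was -2.45 to -0.69 for CISH at 30 minus 3 months, 1.27 to 2.76 at 135 minus 60 days, -3.57 to -2.12 at 25 minus 20 months and -0.95 to -0.14 for postnatal minus prenatal. For GHR it was 0.44 to 0.88 at 3 months minus 280 days, 0.48 to 0.96 at 195 minus 135 days, 0.83 to 1.27 at 30 minus 3 months and 0.66 to 1.1 at 25 minus 20 months.

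The crosses were paired by age in the model, and leaving age out changed no call between them for the 3 genes. A cross and age has 1 column, so there were no replicate numbers to pair. Signal over background is not in the deposited table, so rows near background could not be told from others.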
